A study of Sus scrofa with 12 samples.

Results

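Imprinted growth genes were followed in the uterus of newborn gilts (young female pigs). The set holds 10 genes chosen by name, PEG3, PEG10, DLK1, MEST, CDKN1C, PLAGL1, GRB10, NNAT, NDN and MAGEL2. Of these, 8 were found among the 20390 genes of the deposited table, in 9 entries, since DLK1 had a placeholder entry described as DLK1-like beside its own. PEG3, a zinc finger protein, and CDKN1C, an inhibitor of cyclin-dependent kinases, were not matched by symbol, description or gene ID and are not analysed here. In mouse and human, imprinted genes are transcribed mainly from the maternal or the paternal copy, and many of them act on growth before and shortly after birth. Genes read from the paternal copy often favour growth and those read from the maternal copy often restrain it, and the expression of several falls after birth in many organs. The values used here sum both copies of a gene, so they carry the amount of transcript and nothing about its parental origin.

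The study asked how the uterine transcriptome changes with age and nursing. PND2N gilts nursed freely for 48 h, PND2R gilts drank a commercial milk replacer for 48 h, and the uteri of both were taken at 50 h of age. PND0 gilts were killed within 1 h of birth and had not nursed. The 12 animals were crosses of the breeds Landrace, Yorkshire, Duroc and Hampshire, with 4 gilts and 4 libraries per group. Litters and processing dates are not part of the labels.

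Each value is a normalized expression value of the authors on a linear scale whose lowest entry is 1, with no scaling by gene length given, so levels are compared between libraries and never between genes. The values of a library summed to 26534074 to 29544130, the read depth is unknown, and 17.8% to 22.1% of genes stood at 1. All 10 genes of a list that marks the uterus (HOXA10, ESR1, PGR and others) were in the table, with summed levels of 40542 to 50501 in PND2N, 44781 to 52829 in PND2R and 35773 to 48419 in PND0. Some libraries stood apart. DES, a muscle intermediate filament, was 40049 in PND2N 1, 33144 in PND2R 2 and 29022 in PND2R 3, and between 7460.1 and 23440 elsewhere, and these libraries lay together at an end of the first principal component (58.5% of the variance). The epithelial keratin KRT8 was at 14444 in PND0 3 and 11100 in PND0 4, but at 49821 in PND0 1 and 51645 in PND0 2. Results are therefore also given without those 3 day 2 libraries and without those 2 newborn libraries.

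The 7 genes with values above 1 in every library were placed on the Sscrofa10.2 build. None of their intervals overlapped that of another gene of the table. NNAT spans chromosome 17, 46326821 to 46329059, on the plus strand, and NDN (listed under the symbol NECD) chromosome 1, 148621135 to 148622114, also on the plus strand. MAGEL2 follows NDN on the same strand at 148659046 to 148665053, after a gap of 36932 bases. PLAGL1 lies far away on chromosome 1, at 22449627 to 22469764. MEST occupies chromosome 18, 19733888 to 19743590, on the minus strand. PEG10 (82094840 to 82100460) and GRB10 (148699395 to 148829576) are both on the minus strand of chromosome 9. Each interval is the whole gene, so exons and untranslated parts are not resolved in these values.

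NNAT and NDN were higher and PLAGL1 was lower in day 2 uteri than in newborn uteri, while GRB10, PEG10 and MAGEL2 had changes near 0. Levels were compared as log2(value + 1) with limma over all 16862 genes tested, and a gene was called at a Benjamini-Hochberg adjusted p under 0.05. With both day 2 groups in 1 comparison against PND0, 3 of 7 members were called, beside 18.1% of all genes. Of these 3, 2 were higher and 1 was lower, beside 9.57% and 8.49% of all genes. For PND2R against PND0, 1 of 7 was called (NDN, higher), beside 15.0% of all genes, with 7.70% higher and 7.31% lower. For PND2N against PND0, limma called 0 of 7, beside 3.32% of all genes (1.91% higher and 1.41% lower). There 3 of 7 had an unadjusted p under 0.05, beside 4032 of the 16862 genes tested. For PND2N against PND2R it called 0 of 7, beside 0.0119% of all genes. Here 0 of 7 had an unadjusted p under 0.05, beside 452 of the 16862 genes. These comparisons share libraries and are not independent of each other.

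**Figure D1:**
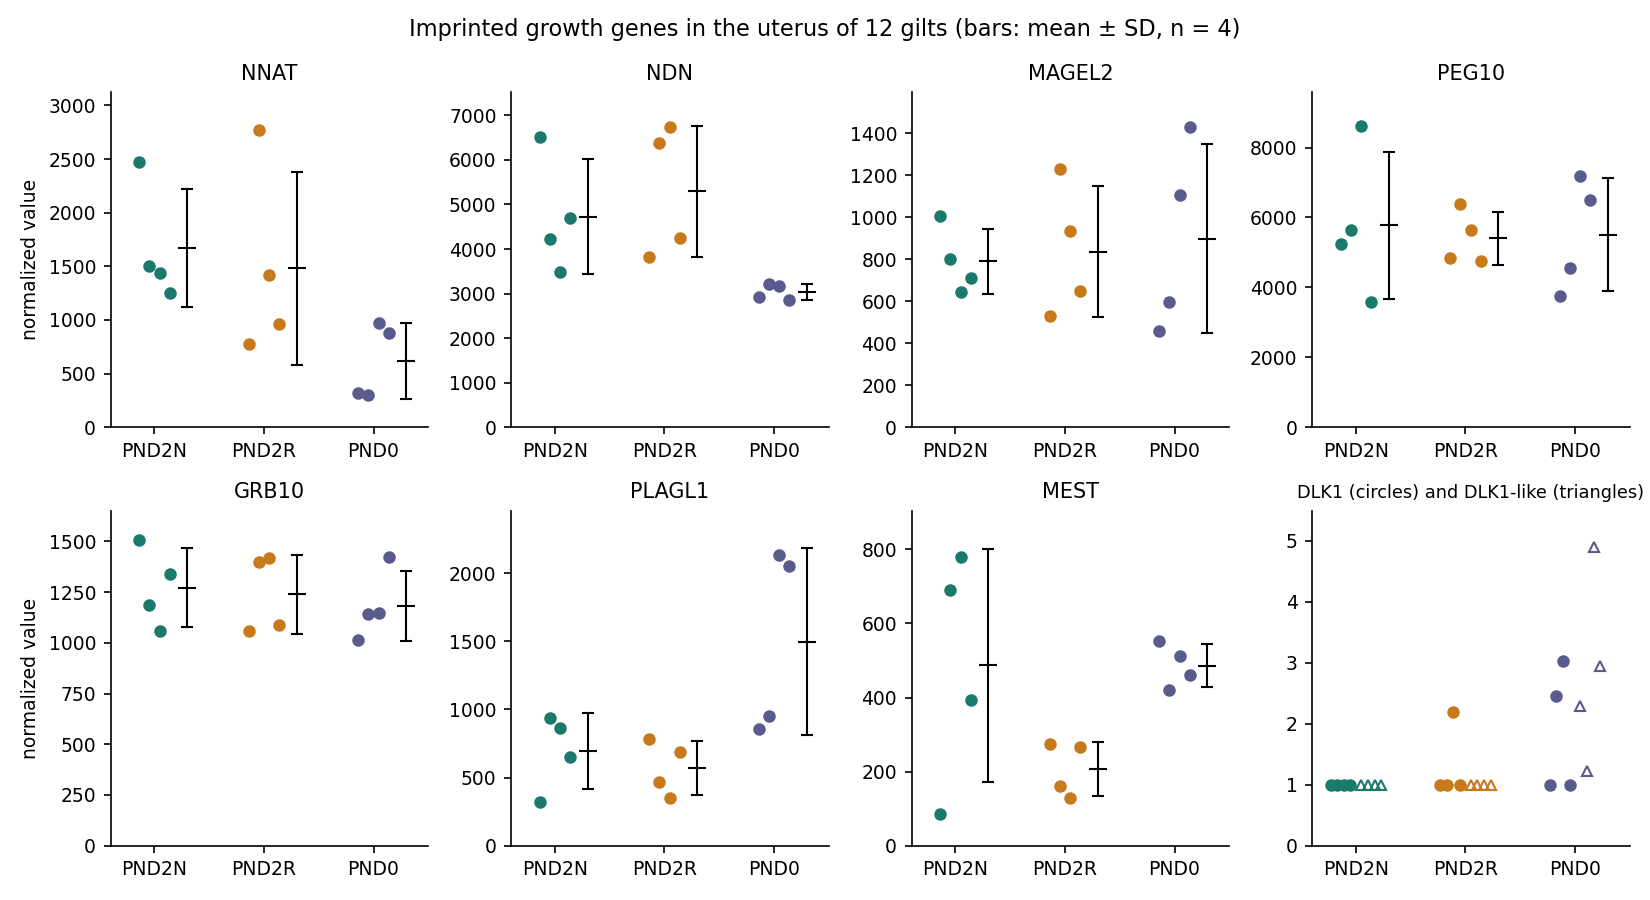
Normalized value (linear axis, from 0) of each gene in every library of PND2N, PND2R and PND0, with black bars for the mean ± SD of 4 gilts; DLK1 and its DLK1-like entry share a panel without bars. All 8 day 2 libraries lie above the 4 PND0 libraries for NDN, and the 4 PND2R libraries lie below them for MEST and PLAGL1.

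**Figure D2:**
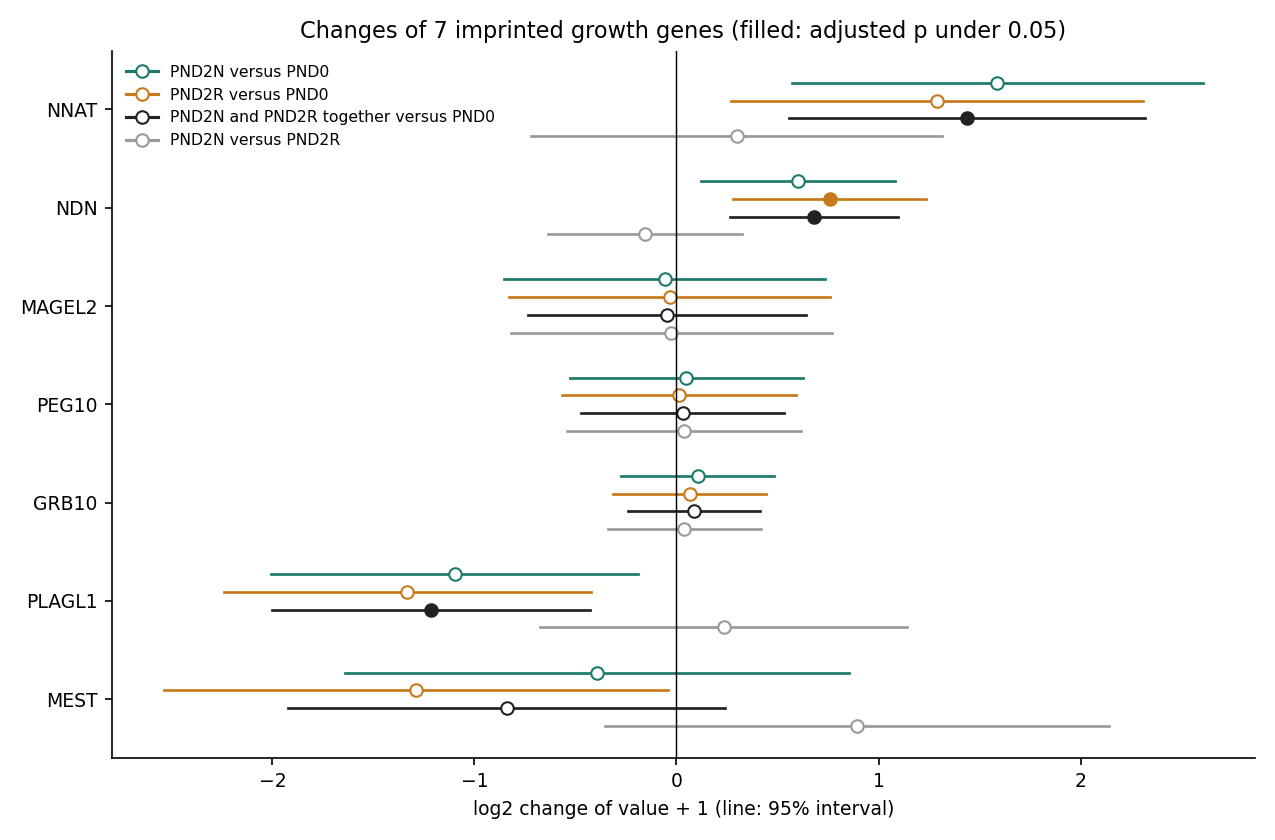
Log2 change of the 7 members in each comparison, with 95% intervals; filled points passed an adjusted p of 0.05. NNAT, NDN and PLAGL1 carry filled points for both day 2 groups together, and NDN also for PND2R versus PND0.

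NNAT encodes neuronatin, a small protein of the endoplasmic reticulum membrane that is paternally expressed and known mainly from brain and adipose tissue. Its values were 2476, 1501, 1436 and 1253 in PND2N 1 to PND2N 4, and 776, 2768, 1414 and 963 in PND2R 1 to PND2R 4. In PND0 1 to PND0 4 they were 322, 299, 967 and 874. All 4 PND2N libraries and 2 of the PND2R libraries exceeded every newborn library, and the other PND2R libraries overlapped with PND0 3 and PND0 4. NNAT thus averaged 1666 ± 549.8 in PND2N, 1480.4 ± 899 in PND2R and 616 ± 354 in PND0 (SD, n = 4 each). Day 2 gilts together exceeded newborns by 1.44 ± 0.40 on the log2 scale (SE, limma adjusted p = 0.0324), a rise of 2.71-fold. The change was 1.59 ± 0.47 in PND2N (limma adjusted p = 0.0788) and 1.29 ± 0.47 in PND2R (limma adjusted p = 0.0745), neither past the threshold.

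Newborn libraries themselves split for NNAT, and this split ran with the epithelial genes. PND0 3 and PND0 4, with the higher NNAT values, had low epithelial markers, while PND0 1 and PND0 2 had high ones. The epithelium list (9 of 10 genes in the table, none of them at 1 in all libraries) summed to 50382 to 90985 in PND2N, 70694 to 89053 in PND2R and 23237 to 106940 in PND0. Without PND0 3 and PND0 4 the NNAT change was larger, at 2.37 in PND2N (adjusted p = 0.0417) and 2.07 in PND2R (adjusted p = 0.0348). Without PND2N 1, PND2R 2 and PND2R 3 it was 1.04 for both day 2 groups together (adjusted p = 0.0993). The call for both groups together was also lost without PND2N 4, PND2R 2, PND2R 3, PND0 1 or PND0 2, each left out alone, with adjusted p-values of 0.0506, 0.0507, 0.0571, 0.0876 and 0.0816. In bulk tissue, fewer cells of a type and less transcript per cell cannot be told apart, and the part of tissue makeup in these values was not tested.

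The neighbour of NNAT in the table, BLCAP, starts 1847 bases away on the opposite strand. In human and mouse, NNAT lies inside an intron of BLCAP. BLCAP, a small protein first described in bladder cancer, had 3225, 2231, 1649 and 2353 in PND2N, 2057, 3345, 3375 and 2137 in PND2R, and 1753, 1836, 1629.8 and 1930.2 in PND0. Its level for both day 2 groups together was higher by 0.47 ± 0.19 (adjusted p = 0.102), short of the threshold. Over the 12 libraries NNAT and BLCAP had a Pearson correlation of 0.67, and 0.52 after group means were removed. The libraries differ in group and tissue markers, their depth is unknown, and the part of these in the correlation was not tested.

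NDN encodes necdin, a protein of the MAGE family that restrains proliferation and is best known in neurons, from the imprinted region of Prader-Willi syndrome. NDN stood at 6513, 4230.4, 3482 and 4694 in PND2N and at 3809.8, 6387, 6732 and 4245 in PND2R. In PND0 it stood at 2931, 3210.3, 3169 and 2854. Every day 2 library exceeded every newborn library, and the 4 newborns lay close together. The means were 4729.8 ± 1289.6 in PND2N, 5293 ± 1479 in PND2R and 3041 ± 175 in PND0 (SD, n = 4 each). NDN was the only member without overlap when all 8 day 2 libraries were set against PND0, where 13.3% of all genes had no overlap. Both day 2 groups together were higher by 0.68 ± 0.19 (SE, limma adjusted p = 0.0321), and PND2R by 0.76 ± 0.22 (limma adjusted p = 0.0400). In PND2N the change was 0.60 ± 0.22 (limma adjusted p = 0.132).

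The 3 highest NDN values belonged to PND2R 3, PND2N 1 and PND2R 2, the libraries with the highest DES. The smooth muscle list (9 of 10 genes in the table, none at 1 in all libraries) summed to 163190 to 420200 in PND2N, 207500 to 336630 in PND2R and 172900 to 253810 in PND0. Its median over genes, relative to the mean of 12 libraries, was 0.70, 0.52 and 0.39 in PND2N 1, PND2R 2 and PND2R 3 and at most 0.16 in the others. Without these 3 libraries the NDN change was 0.42 for both groups together (adjusted p = 0.0678) and 0.40 for PND2R (adjusted p = 0.189). Without PND0 3 and PND0 4 it was 0.66 for both groups together (adjusted p = 0.14) and 0.74 for PND2R (adjusted p = 0.134), so both calls were lost there too. Left out alone, PND2N 4, PND2R 2, PND2R 3, PND0 1, PND0 2, PND0 3 and PND0 4 each ended the call for both groups together, with adjusted p-values of 0.0598, 0.0604, 0.0565, 0.0691, 0.0527, 0.0671 and 0.0921. For PND2R against PND0, the call was also lost without PND2N 2 (adjusted p = 0.0529) and without each of these same libraries, with adjusted p-values of 0.0578 to 0.125. Through all of these fits the fitted change of NDN against PND0 was positive, between 0.40 and 0.90.

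MAGEL2, the next gene on the same strand and also of the MAGE family, works with the ubiquitin ligase TRIM27 and the deubiquitinase USP7 in protein sorting at endosomes. Its values were 1004, 800.5, 643 and 713 in PND2N, 529, 1230.6, 937 and 650.0 in PND2R, and 460.4, 595, 1108 and 1430.0 in PND0. The groups overlapped fully, and the lowest and highest values both came from newborns. Both day 2 groups together differed from PND0 by -0.05 on the log2 scale, with a 95% interval of -0.73 to 0.64 (limma adjusted p = 0.927). The difference between the changes of MAGEL2 and NDN was not tested. Without PND0 3 and PND0 4, which held the 2 highest newborn values, the change was 0.59 (adjusted p = 0.236).

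Around NDN and MAGEL2, the table also held UBE3A and MKRN3 of the same chromosomal region. UBE3A, a ubiquitin ligase imprinted in neurons, had 6162, 4731, 4310.0 and 5478 in PND2N, 4937, 5906, 6396 and 5290 in PND2R, and 3470.5, 3371, 4115 and 4054 in PND0. All day 2 libraries exceeded all newborn libraries, as with NDN, and both groups together were higher by 0.52 ± 0.13 (SE, limma adjusted p = 0.0199). This call was lost without PND0 1 (adjusted p = 0.0504) and without the 3 high DES libraries (adjusted p = 0.0715). MKRN3, a ubiquitin ligase of the makorin family, had 78.8, 38.1, 67.9 and 55.0 in PND2N, 46.3, 78.8, 104 and 98.7 in PND2R, and 103, 62.3, 123 and 201 in PND0, a difference of -0.73 ± 0.35 for both groups together (adjusted p = 0.150). NDN followed UBE3A more closely than its direct neighbour, with correlations over 12 libraries of 0.92 with UBE3A and 0.31 with MAGEL2, and of 0.82 and 0.53 after group means were removed. MAGEL2 correlated with MKRN3 at 0.51, and at 0.61 after group means were removed. The difference between these correlations was not tested. Strong correlations of NDN were not limited to this region. With imprinted genes far away on chromosome 1, NDN had -0.91 (IGF2R), -0.87 (PLAGL1) and 0.23 (SLC22A3). VDAC3, the gene most like NDN over the 12 libraries, had 0.99. The libraries differ in group and tissue markers, and the part of these in the correlations was not tested.

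PLAGL1 encodes a zinc finger transcription factor, also known as ZAC1, which is paternally expressed, slows the cell cycle and in mouse regulates other imprinted genes. It had 318, 940.4, 865 and 653 in PND2N and 784, 467, 352 and 684 in PND2R. In PND0 it had 854, 954, 2133 and 2050.3. All PND2R libraries lay below all newborns, whereas PND2N 2 and PND2N 3 lay within the newborn range. Mean levels were 694 ± 279 in PND2N, 572 ± 198 in PND2R and 1498 ± 688 in PND0 (SD, n = 4 each). Both day 2 groups together fell by 1.22 on the log2 scale (SE 0.36, limma adjusted p = 0.0388), to 0.431 of the newborn level. The change was -1.33 ± 0.42 in PND2R (limma adjusted p = 0.0504) and -1.10 ± 0.42 in PND2N (limma adjusted p = 0.142), neither past the threshold.

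The 2 highest PLAGL1 values were those of PND0 3 and PND0 4, the newborns with low keratins. Without both, the change for the day 2 groups together was -0.61 (adjusted p = 0.349), and without PND0 3 or PND0 4 alone the adjusted p was 0.115 or 0.127. The call was also lost without PND2N 4, PND2R 2 or PND2R 3, with adjusted p-values of 0.0676, 0.0701 and 0.0684. The 3 lowest PLAGL1 values were those of PND2N 1, PND2R 3 and PND2R 2, the high DES libraries, and without them the change was -0.83 (adjusted p = 0.107). PLAGL1 had a positive correlation with MEST (0.76) and a negative one with NDN (-0.87) over the 12 libraries. After group means were removed these were 0.74 and -0.73.

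**Figure D3:**
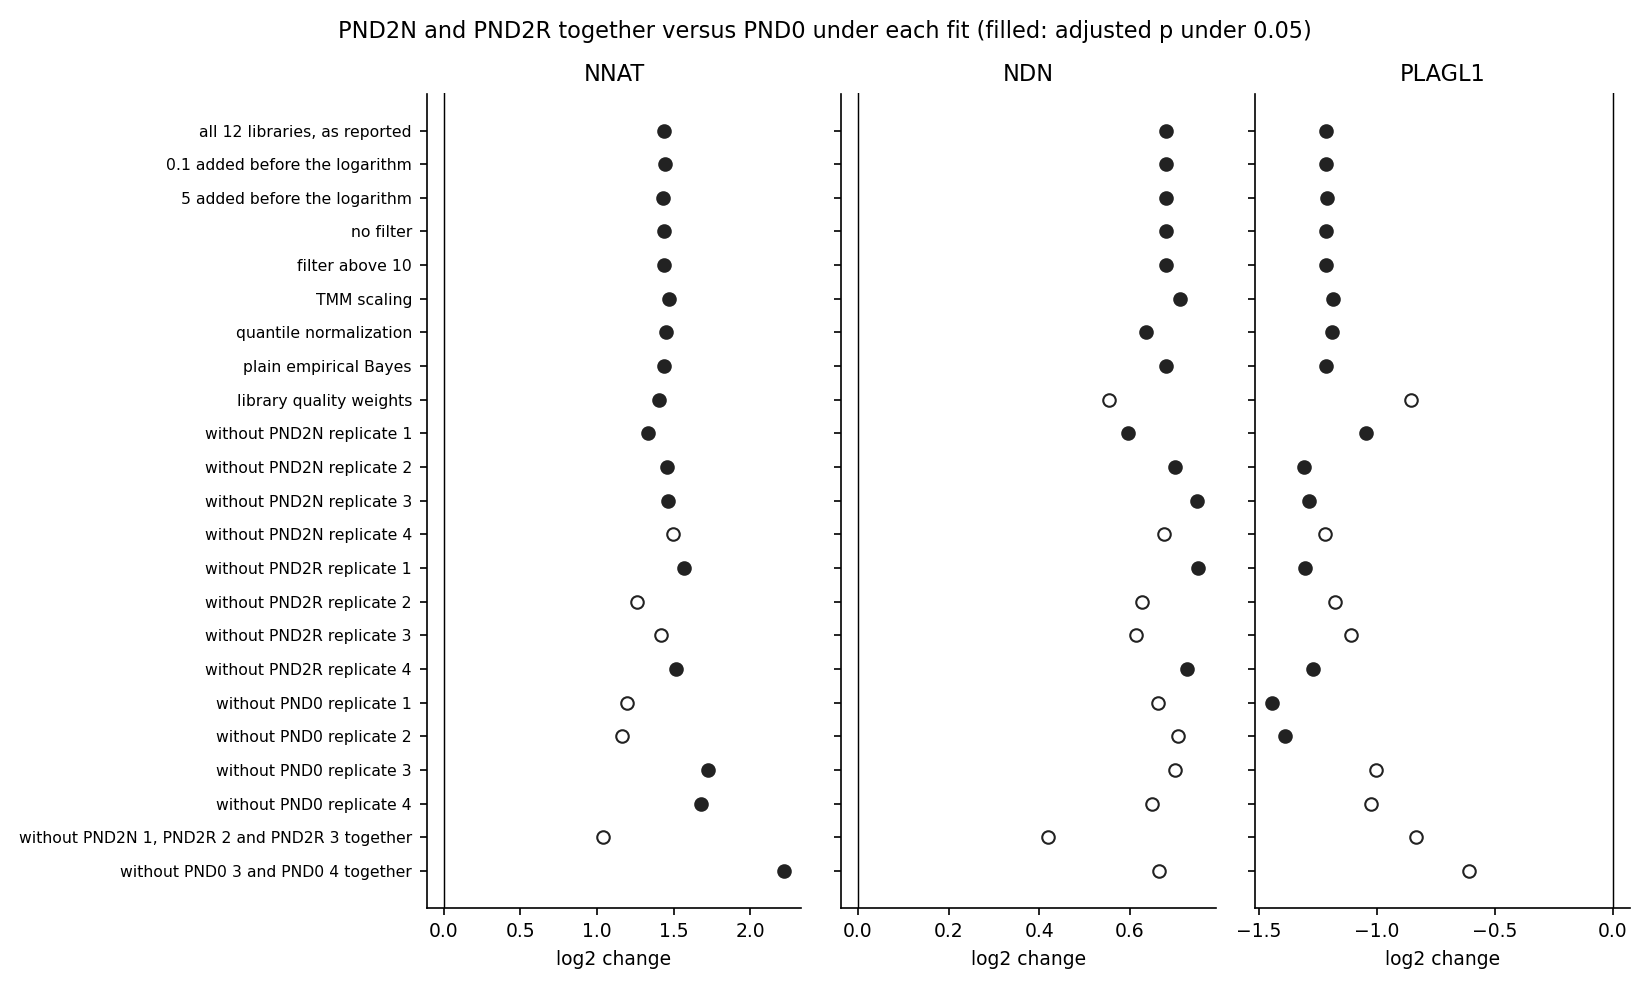
Log2 change of NNAT, NDN and PLAGL1 for both day 2 groups together versus PND0 under each way of processing the values and with libraries left out; filled points passed an adjusted p of 0.05. The sign is the same throughout, and the call of each gene is lost in several of the fits with libraries left out.

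MEST encodes a membrane enzyme of the alpha/beta hydrolase family that is paternally expressed and marks mesodermal tissue growth. Its values were 85.8, 690.2, 781 and 393 in PND2N, 275, 162, 128 and 266 in PND2R, and 552, 419.7, 513 and 460.2 in PND0. All 4 PND2R libraries lay below all 4 newborns, and the nursed gilts spanned a range from below the replacer-fed gilts to above the newborns. Means were 487 ± 315 in PND2N, 208 ± 73.5 in PND2R and 486 ± 58.0 in PND0 (SD, n = 4 each). PND2R differed from PND0 by -1.29 ± 0.57 (SE, limma adjusted p = 0.125), which did not pass, and PND2N by -0.39 ± 0.57 (limma adjusted p = 0.679). Together with PLAGL1 and NDN, MEST made up the 3 of 7 members without overlap between PND2R and PND0, beside 28.3% of all genes. Against PND0, the PND2N libraries did not overlap for 2 of 7 members (NNAT and NDN), beside 16.0% of all genes.

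A low value in PND2N 1 set much of the MEST result. Without PND2N 1 the nursed difference from newborns turned to 0.30, and the PND2R difference of -1.29 passed the threshold (adjusted p = 0.0164). With only PND2R and PND0 in the fit the adjusted p of this PND2R difference was 0.0272. Of its 23 alternatives these 2 were the only ones that passed. Without the 3 high DES libraries the PND2R difference was -0.84 (adjusted p = 0.142). Without PND0 3 and PND0 4 it was -1.28 (adjusted p = 0.294). Between PND2N and PND2R the MEST difference was 0.89 ± 0.57, with a 95% interval of -0.35 to 2.14 (limma adjusted p = 1.00). COPG2, a coat protein gene whose 3 prime end meets that of MEST 862 bases away on the opposite strand, had 4082, 5617, 5016 and 5060 in PND2N, 6712, 4679, 5201 and 5927 in PND2R, and 5202, 4832, 4951 and 4433 in PND0. Its groups overlapped, and its correlation with MEST was 0.25 over 12 libraries and 0.75 after group means were removed.

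GRB10 encodes an adaptor that binds the insulin and IGF1 receptors and dampens their signal, and in mouse most tissues express it from the maternal copy. It had 1506, 1185, 1059.8 and 1341 in PND2N, 1057, 1397, 1417 and 1087 in PND2R, and 1013, 1142, 1147 and 1425 in PND0. The groups overlapped, and the highest library had 1.49 times the level of the lowest, the narrowest spread among the 7 members. Both day 2 groups together differed from PND0 by 0.09, with a 95% interval of -0.24 to 0.41 (limma adjusted p = 0.697).

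Of the receptors and signal partners of GRB10, 15 were listed and 12 tested. For both day 2 groups together 0 rose and 6 fell, among them IGF1R, INSR and IRS1, beside 8.49% of all genes lower and 9.57% higher. The list had a median change of -0.80, against -0.05 over all genes. IGF1R, the IGF1 receptor, had 1421 ± 159 in PND2N, 1533 ± 494 in PND2R and 2967 ± 541 in PND0 (SD, n = 4 each), a fall of 1.02 on the log2 scale (limma adjusted p = 0.00962). INSR, the insulin receptor, had 226 ± 125, 162 ± 115 and 869 ± 180.2 in PND2N, PND2R and PND0, a change of -2.45 ± 0.52 (limma adjusted p = 0.0126). The adaptor IRS1 changed by -1.18 ± 0.24, the regulatory kinase subunit PIK3R1 by -1.91 ± 0.45, the mTOR complex subunit RPTOR by -0.57 ± 0.12 and its counterpart RICTOR by -2.32 ± 0.73. RICTOR had 9.39 ± 8.41 in PND2N, 15.9 ± 14.5 in PND2R and 46.8 ± 17.6 in PND0 (SD, n = 4 each, limma adjusted p = 0.0467). Its value in PND2N 1 was 1.21, near the lowest of the table. The RICTOR call held in 4 of the 12 fits with 1 library left out.

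INSR, IGF1R, IRS1 and PIK3R1 each had their 3 lowest values in the high DES libraries. INSR was 64.3 in PND2N 1, 60.4 in PND2R 2 and 64.7 in PND2R 3, while the rest of the day 2 libraries had 196 to 348 and PND0 had 642 to 1083. Endothelial markers were also read in these libraries. The endothelium list (9 of 10 genes in the table, none at 1 in all libraries) summed to 10106 to 14922 in PND2N, 8103 to 8667 in PND2R and 11626 to 18383 in PND0. In PND2R 1 to PND2R 4 the sums were 8655.6, 8103.2, 8544.9 and 8667.2, nearly level across the high DES libraries and the others. The median of the list, relative to the mean of 12 libraries, was -0.30 in PND2N 1, -0.70 in PND2R 2 and -0.71 in PND2R 3. Elsewhere this median was -0.32 to 1.02. VWF, a single gene of the list and the blood clotting factor of endothelium, was 24.2 in PND2N 1, 55.8 in PND2R 2 and 90.2 in PND2R 3. It lay between 591 and 3194 elsewhere. The part of these cells in the falls was not tested. Without these 3 libraries 5 of the 6 calls for both groups together held, all but RICTOR. Without PND0 3 and PND0 4 only RPTOR and IRS1 held. With each library left out in turn, 4 to 6 of the 6 held. For the diets alone, 3 of the 12 genes passed in PND2N against PND0, all lower, beside 1.41% of all genes lower. In PND2R 5 of the 12 passed, all lower, beside 7.31% of all genes lower. With 1 library left out, 0 to 2 of the 3 in PND2N held, whichever library it was. In PND2R none of the 5 held without PND2R 3, 1 held without PND2R 2 or PND0 4, and 4 or 5 held without any of the others.

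PEG10, derived from a retrotransposon and needed for the mouse placenta, is paternally expressed. It had 5247, 5641, 8626 and 3588 in PND2N, 4839, 6388, 5628 and 4749.6 in PND2R, and 3745, 4558, 7183 and 6512 in PND0. The groups overlapped, and the lowest and the highest of the 12 values both came from nursed gilts. Both day 2 groups together differed from PND0 by 0.03, with a 95% interval of -0.47 to 0.53 (limma adjusted p = 0.933). SGCE, a sarcoglycan gene whose interval lies 228 bases away on the same strand and is imprinted in the same direction in mouse, had 2040.2, 2154, 1623 and 2068 in PND2N, 1521, 2099, 2067 and 1552 in PND2R, and 1011, 1189.6, 1760.4 and 1399.8 in PND0. Its difference of 0.51 ± 0.17 for both groups together did not pass (limma adjusted p = 0.0530), and its correlation with PEG10 was 0.28.

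DLK1, a Notch-like membrane protein that holds back adipocyte differentiation, was at or near the lowest value of the table. DLK1 (chromosome 7, 131721166 to 131734285, plus strand) stood at 1 in all PND2N libraries, at 2.20 in PND2R 3 and 1 in the other PND2R libraries, and at 2.45 and 3.04 in PND0 2 and PND0 3 and 1 in the other newborns. It exceeded 1 in 3 of 12 libraries and was not tested. The DLK1-like entry (chromosome 7, 131553933 to 131555766, plus strand) stood at 1 in all 8 day 2 libraries and at 2.30, 1.22, 4.90 and 2.95 in PND0. It could be tested only because all 4 newborn libraries exceeded 1, so its difference is given no test here. At such values neither entry can be said to be absent from day 2 uteri. Reads of 2 such similar entries may also have been divided between them.

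The list of adipocyte differentiation genes around DLK1 had 8 of 11 members tested, and LPL, the lipase that releases fatty acids from lipoproteins, was the only call. That is 1 of 8 for both day 2 groups together and for PND2R, no more than the 18.1% and 15.0% of all genes called in these comparisons. LPL had 125 ± 68.6 in PND2N, 47.2 ± 31.8 in PND2R and 437 ± 124 in PND0 (SD, n = 4 each), and fell by 2.70 on the log2 scale for both groups together (SE 0.49, limma adjusted p = 0.00698). The call for PND2R alone, -3.44 ± 0.57 (limma adjusted p = 0.00724), held with each library left out in turn. The call for both groups together was lost without PND0 3 and PND0 4. Of the fat cell markers, ADIPOQ was at 1 in every library and LEP at or near it, and the whole list of 5 markers in the table summed to 70.7 to 222 in PND2N, 33.9 to 107 in PND2R and 372 to 669 in PND0, LPL included.

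Between nursed and replacer-fed gilts none of the 7 members had groups without overlap, beside 2.55% of all genes. The differences in log2 level, PND2N minus PND2R, were 0.30 for NNAT, -0.16 for NDN, -0.03 for MAGEL2, 0.04 for PEG10, 0.04 for GRB10 and 0.23 for PLAGL1, beside the 0.89 of MEST. The 95% interval was narrowest for GRB10, -0.34 to 0.42, and spanned -0.72 to 1.32 for NNAT and -0.67 to 1.14 for PLAGL1. A difference of more than 2-fold between the diets is outside the intervals of GRB10, NDN, MAGEL2 and PEG10 and inside those of NNAT, PLAGL1 and MEST.

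**Figure D4:**
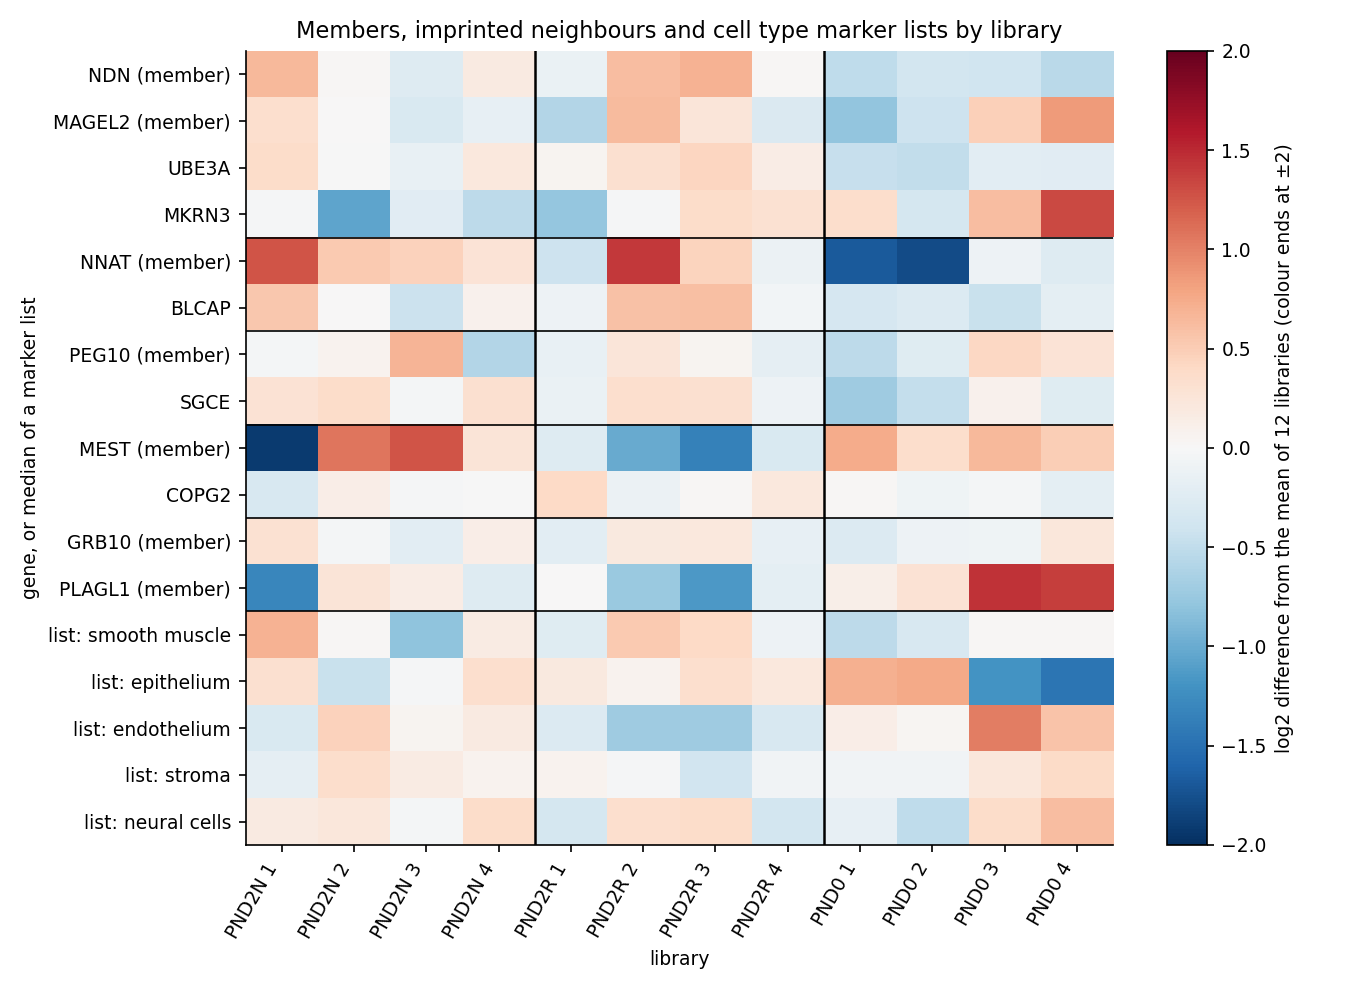
Log2 difference of each member, its imprinted neighbours and the medians of 5 cell type marker lists from the mean of 12 libraries (colour, ending at ±2). Libraries are in columns as PND2N, PND2R and PND0. Horizontal lines part the loci, except that GRB10 (chromosome 9) and PLAGL1 (chromosome 1) share a block. NDN is high and PLAGL1 and MEST are low in PND2N 1, PND2R 2 and PND2R 3, and PLAGL1 and MAGEL2 are high in PND0 3 and PND0 4, where the epithelium list is low.

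Across libraries the members did not move as a block. Of the 21 pairs among the 7 members, the correlations over 12 libraries ran from -0.87 (PLAGL1 with NDN) to 0.78 (MAGEL2 with GRB10). NDN and MEST had -0.82, NDN and NNAT 0.75, and MAGEL2 and NNAT 0.60. With group means removed, MAGEL2 and NNAT had 0.94, so libraries high in one gene within a group were high in the other. These are descriptions over libraries that differ in group and tissue markers and whose depth is unknown. Neural markers, which belong to cells where NNAT, NDN and MAGEL2 are well known, were also present. Their list (6 of 9 genes in the table, none at 1 in all libraries) summed to 12272 to 17973 in PND2N, 11035 to 20181 in PND2R and 7762 to 16814 in PND0. These sums were highest in PND2R 3 and PND2R 2 and lowest in PND0 1 and PND0 2. The median of the list, relative to the mean of 12 libraries, ordered them otherwise. It was highest in PND0 4 (0.62), with 0.37 in PND2R 3 and 0.34 in PND2R 2. It was lowest in PND0 2 (-0.51), PND2R 4 (-0.37) and PND2R 1 (-0.34), with -0.17 in PND0 1. The part of neural cells in the results was not tested.

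Among 11117 named genes with a mean of at least 10, those most like each member over the 12 libraries were the following, by Pearson correlation of log2 values and as a description. NDN was closest to VDAC3, a mitochondrial pore protein (0.99), EIF2B3, a translation factor subunit (0.99), and RRBP1, a ribosome-binding protein (0.99). RRBP1 was 14250, 12360 and 14530 in PND2N 1, PND2R 2 and PND2R 3, and 2952 to 8073 in the other libraries. PLAGL1 was closest to the kinase SNRK (0.98), the histone demethylase KDM2A (0.98) and GLMN (0.98). MAGEL2 was closest to the splicing factor RBFOX2 (0.96), ADGRL1 (0.96) and the homeobox gene HOXD3 (0.96). NNAT was closest to CERKL (0.96), the matrix protein fibromodulin FMOD (0.96) and CAP2 (0.95). MEST was closest to the interleukin receptor chain IL13RA1 (0.96), GRB10 to PHF1 (0.97), and PEG10 to ADGRG2, an adhesion receptor (0.88), the weakest of these likenesses.

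Of 43 other imprinted genes listed, 29 were in the table and 27 tested. For both day 2 groups together 2 rose and 2 fell, near the 9.57% of all genes higher and 8.49% lower, with a median change of 0.04 against -0.05 over all genes. IGF2R, the receptor that clears IGF2 and is maternally expressed in mouse, had 3411, 5183, 4786 and 4390.1 in PND2N, 5310.4, 3709, 4049.6 and 5396 in PND2R, and 8759, 8291, 6917 and 8696 in PND0. All 8 day 2 libraries lay below all newborns, and IGF2R fell by 0.89 in PND2N (SE 0.17, limma adjusted p = 0.0255) and by 0.84 in PND2R (SE 0.17, limma adjusted p = 0.0138). It was the only call of the list in PND2N against PND0, beside 3.32% of all genes called. There the IGF2R call was lost without PND2N 1, PND2N 4, PND0 1 or PND0 4 (adjusted p up to 0.0900). It was also lost with only PND2N and PND0 in the fit. Its call for both groups together held in all 22 alternatives, with adjusted p-values of 0.00563 to 0.0266, whereas that for PND2R was lost without the 3 high DES libraries. TFPI2, a protease inhibitor, was lower in PND2R by -0.84 ± 0.20 (limma adjusted p = 0.0222), and RASGRF1, an exchange factor of RAS, higher by 0.88 ± 0.24 (limma adjusted p = 0.0304). The calls in PND2R were 4 of 27, near the 15.0% of all genes called there. Of these 4, 1 held without PND2R 3 and 2 held without PND2R 2, PND0 1 or PND0 4. For both groups together, 1 of the 4 calls held without PND0 1 and 2 without PND0 3.

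Genes of the cell cycle, mostly of its G1 phase, rose where they passed. CDKN1C and PLAGL1 restrain the cycle, and a link between PLAGL1 and these rises was not tested. Of 19 listed 12 were tested, and for both day 2 groups together 4 rose and 0 fell, beside 9.57% of all genes higher and 8.49% lower. The list had a median change of 0.54, against -0.05 over all genes. CDKN2C, an inhibitor of CDK4 and CDK6, had 1521 ± 291 in PND2N, 1709 ± 255 in PND2R and 672 ± 42.0 in PND0 (SD, n = 4 each). It rose by 1.16 ± 0.17 in PND2N (limma adjusted p = 0.0113) and by 1.34 ± 0.17 in PND2R (limma adjusted p = 0.00391), and both held with each library left out in turn and without the 3 or the 2 libraries that stood apart. With only PND2N and PND0 in the fit, the PND2N call was lost (adjusted p = 0.0734). The other calls were CDKN2D (0.92 ± 0.23), a further inhibitor of these kinases, and the cyclins CCNE1 (0.70 ± 0.20) and CCNA2 (0.82 ± 0.23). So the list's members that rose are both inhibitors and drivers of the cycle. Of the 4 calls 1 held without PND0 4, and 2 held without PND0 1, PND0 2, PND2R 2 or PND2R 4.

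Genes that maintain imprints and DNA methylation had 14 of 16 tested. For both day 2 groups together 2 were higher and 1 lower, near the 18.1% of all genes called, and the median change was -0.27, against -0.05 over all genes. UHRF1, which guides the maintenance methyltransferase to replicating DNA, was 3983 ± 1125 in PND2N, 3827 ± 365 in PND2R and 2260.1 ± 513 in PND0 (SD, n = 4 each), higher by 0.79 ± 0.19 (limma adjusted p = 0.0187). EZH2, the histone H3 methyltransferase of Polycomb, was higher by 1.01 ± 0.26 and the DNA methyltransferase DNMT3A lower by -0.38 ± 0.11. In PND2R, ZFP57, a zinc finger protein that protects imprints in mouse, was also lower, with 16.1 ± 11.7 in PND2N, 8.69 ± 6.67 in PND2R and 38.9 ± 18.1 in PND0 (limma adjusted p = 0.0463 for PND2R). None of the 3 calls for both groups together held without the high DES libraries or without PND0 4, and 1 held without PND0 1. The calls in PND2R were 3 of 14, beside 15.0% of all genes. None of these 3 held without PND2R 2, PND2R 3, PND0 1 or PND0 4, each left out alone, and 1 held without PND2R 4.

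Among relatives and partners of NDN and MAGEL2, 7 of 11 listed genes were tested, and for both day 2 groups together 1 rose and 3 fell, beside 9.57% of all genes higher and 8.49% lower. The list had a median change of -0.26, against -0.05 over all genes. MAGEH1, a short MAGE protein, had 1169 ± 184 in PND2N, 847 ± 52.6 in PND2R and 1543 ± 176 in PND0 (SD, n = 4 each), and fell in PND2R by 0.86 on the log2 scale (SE 0.16, limma adjusted p = 0.0105), a call that held with each library left out in turn. USP7 was lower by -0.39 ± 0.11 and NSMCE3, a MAGE protein of a chromosome repair complex, by -0.75 ± 0.22, while MAGED2 was higher by 0.40 ± 0.11. Without the 3 high DES libraries MAGEH1 alone held for both groups together, and its call in PND2R was lost (adjusted p = 0.0543). Of the 4 calls, 1 held without PND2N 4, PND2R 3 or PND0 4, and 2 held without PND2R 2, PND0 1 or PND0 3.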

How the data were processed

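Uterine RNA of 12 gilts was made into 1 library each. Per the labels' protocols, RNA was isolated with a column kit and libraries with an mRNA kit, and per the submitters' processing notes bcl2fastq and Sscrofa10.2 were used. Which aligner, counter and normalization were used is not given in the sources used here. The deposited table holds signal, a normalized linear value of the authors, with 1 as its lowest value. Of values under 12, 49.0% to 59.7% were whole multiples of a step (within 0.02 steps), so counts of reads could not be recovered, and neither a count test nor a counting interval was used. Names came from the table and, by gene ID, from an NCBI table of Sscrofa11.1 used for names only (13077 of 20390 genes named). Members were matched by symbol, description or gene ID.

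Values were taken as log2(value + 1), and a fold change on this scale understates changes of low genes. Genes above 1 in at least 4 of 12 libraries were tested (16862), all libraries in 1 fit, with limma 3.58.1 (R 4.3.3), trended and robust empirical Bayes, two-sided, and Benjamini-Hochberg adjustment over all genes tested. The 4 comparisons were PND2N versus PND0, PND2R versus PND0, PND2N versus PND2R, and both day 2 groups together (equal weight) versus PND0. The script was tested on simulated data. Each gilt is a sample of its own, so p-values set a difference against a spread between gilts. In the main fit this spread is estimated over all 3 groups and moderated by the empirical Bayes step. Litters are not labelled, so the gilts were taken as independent. Replicate numbers only name libraries, so no pairing was used. The members and gene lists were chosen with earlier results of these data known. All members are named. Of each list, genes past the threshold in any comparison are named (at most 6). Lists are described by counts and medians, with no test. Tables were made in Python 3.11.15 (pandas 2.3.3, numpy 2.4.6) and figures in matplotlib 3.10.9. The fits were repeated with 0.1 or 5 added, no filter or a filter at 10, TMM and quantile scaling, only the groups compared, plain empirical Bayes, library quality weights, and libraries left out.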

Additional observations from a re-analysis of the deposited data

How the results depend on the processing

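The added value, the filter and TMM or quantile scaling kept all 3 calls for both day 2 groups together. Among members, 536 of 637 alternative values kept direction and call, 36 lost a call, 14 gained one and 51 changed sign. Quantile scaling moved the median change of all genes in PND2R versus PND0 to 0.05, against -0.06 as reported. No paired analysis was possible because the labels number no litters or pairs. Depth is unknown, so values near 1 allow no statement of absence. The quality weights stopped before their tolerance was reached. The cause of each shift below was not tested.

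The number of members past the threshold changed as follows. For PND2N versus PND0 it was 1 (NNAT) with quality weights and 1 (NNAT) without PND0 3 and PND0 4 together, against 0. For PND2R versus PND0 it was 2 with 5 added, with the filter at 10 and with quantile scaling, 3 with only the groups compared, 0 with plain empirical Bayes, 0 with quality weights and 0 without the 3 high DES libraries, against 1 (NDN). Without PND0 3 and PND0 4 it was also 1, but NNAT in place of NDN. For both groups together it was 1 with quality weights, 0 without the 3 high DES libraries and 1 without PND0 3 and PND0 4, against 3. Leaving out 1 library gave 0 to 3 for PND2R versus PND0 and for both groups together, and 0 for the other comparisons.

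Changes of sign were limited to differences that had not passed. Without the 3 high DES libraries NDN in PND2N versus PND2R was 0.0294 and MAGEL2 there 0.29, PEG10 was -0.15 in PND2R versus PND0 and -0.0383 for both groups together, GRB10 was -0.13 and -0.0545 in the same comparisons, and MEST in PND2N versus PND0 was 0.30. Without PND0 3 and PND0 4 MAGEL2 was 0.57 in PND2N, 0.60 in PND2R and 0.59 for both together, against PND0. With quality weights MAGEL2 was 0.0248 in PND2N versus PND0 and 0.10 in PND2N versus PND2R, GRB10 was -0.0031 in PND2R versus PND0, and MEST was 0.13 in PND2N versus PND0. With TMM scaling MAGEL2 was 0.0055 in PND2R versus PND0. Leaving out 1 library, MAGEL2 ran from -0.33 to 0.21 in PND2N versus PND0, -0.31 to 0.24 in PND2R versus PND0, -0.22 to 0.18 in PND2N versus PND2R and -0.32 to 0.23 for both groups together. In the same order PEG10 ran from -0.17 to 0.26, -0.16 to 0.16, -0.18 to 0.24 and -0.14 to 0.18. GRB10 ran from -0.0038 to 0.16 in PND2R versus PND0 and -0.0458 to 0.12 in PND2N versus PND2R, and MEST from -0.76 to 0.30 in PND2N versus PND0.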

Other observations

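Several imprinted genes outside the set stood far apart between libraries of a group. ZDBF2, a zinc finger gene, had 321, 274, 264 and 342 in PND2N, 452, 109.7, 269 and 439 in PND2R, and 144, 98.1, 1391 and 813 in PND0, so the newborns with low keratins had the highest values of all libraries. INPP5F, an inositol phosphatase, had day 2 values of 968 to 2389, and newborn values of 876 and 1003 in PND0 1 and PND0 2 and of 2865 and 2325 in PND0 3 and PND0 4. PHLDA2, a gene that restrains placental growth, had 45.3 to 157 in PND2N and 94.4 to 202 in PND2R, and ran the other way among newborns, with 215, 140.5, 28.9 and 43.1 in PND0 1 to PND0 4. None of the 3 passed the test in any comparison.

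IMPACT, a translation regulator, had 40.3 in PND2N 1, 34.4 in PND2R 2 and 68.7 in PND2R 3, while the rest of the day 2 libraries had 237 to 666 and PND0 had 572 to 903. PPP1R9A, a neighbour of PEG10 that encodes an actin-binding protein, had 7.26, 8.85 and 30.9 in the same libraries, 52.7 to 251 in the other day 2 libraries and 207 to 339 in PND0. CALCR, the calcitonin receptor, had 379.8, 523 and 749 there, 1397 to 2950.1 in the other day 2 libraries and 934 to 3034 in PND0. None of these genes passed the test. They were chosen after their values were seen.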
